A study of Arabidopsis thaliana with 24 samples.

Results

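WRKY6 (AT1G62300), WRKY22 (AT4G01250), WRKY47 (AT4G01720) and WRKY53 (AT4G23810) are 4 genes of the plant WRKY family of transcription factors. They were chosen by name and with earlier results of these data known, so counts of calls among them are descriptions. Each is the single gene named by 1 probe set, and they are 4 of 22746 non-control probe sets on the array. All 4 passed the filter on low values that left 15471 probe sets for testing. Total RNA of Arabidopsis thaliana (Col-0), from green parts or whole plants raised in continuous light, had been measured on 24 one-colour arrays in 8 sets of 3. Set 7 was the green part of seedlings from soil, at 23 °C with a relative humidity of 65%. Sets 22, 23 and 24 were whole plants from the same soil regime, taken after the transition and before bolting, and their labels differ in the set number alone. Sets 96, 97, 100 and ATGE_101 were green parts of seedlings kept at 20 °C on the medium that the labels call 0.5x GM. The medium of sets 97 and ATGE_101 also held 5% sucrose. Most plants of sets 96 and 97 looked like 7-day-old plants of set 7, according to their labels. The labels name no genotype other than Col-0 and give no sampling age for the remaining sets. Nothing there says whether the arrays of a set came from separate cultures, so p-values measure the spread between these arrays, which may be technical.

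WRKY proteins bind the W box, a short promoter element, through the conserved domain that gives the family its name, and many of their genes respond quickly to pathogens, wounding and ageing. WRKY22 acts, together with WRKY29, at the end of the mitogen-activated protein kinase cascade that responds to bacterial flagellin, and has also been linked to leaf senescence. WRKY6 is known from senescence, pathogen defence and the phosphate response, where it represses the phosphate exporter gene PHO1. WRKY53 promotes the onset of leaf senescence and responds to hydrogen peroxide. WRKY47 belongs with WRKY6 to group IIb of the family, while WRKY22 is of group IIe and WRKY53 of group III.

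Values are intensities on a linear scale, with a trimmed mean of 100 in every array as deposited, and differences are on the scale of log2(intensity + 6.75). A call means a limma p-value under 0.05 after adjustment over all 15471 probe sets. No detection calls were used here, and the number of arrays limits the precision. The defining markers of green tissue that could be named, RCA, psbA and rbcL (3 of 7 listed), summed to between 5010 and 8220 in every array. Of 6 root markers 3 could be named, and they summed to 717 to 809 in set 7, 27.4 to 85.1 in the whole plants, 2240 to 2770 in sets 96 and 97 and 990 to 1310 in sets 100 and ATGE_101. In the seedling sets most of that sum was PYK10, a beta-glucosidase, which read 6.82 to 49.5 in the whole plants. The root hair genes EXPA7 and EXPA18 stayed at or below 26.7 in every array. ICL, the isocitrate lyase of seed oil use and 1 of 3 seed markers that could be named, read 111 to 146 in set 96, 24 to 38.6 in set 97 and at most 2.2 in all other arrays. None of 5 floral markers could be named. In bulk tissue fewer cells of a type and less RNA per cell cannot be told apart. The actin control's 3′ over 5′ ratio, a sign of RNA quality, was 5.96 ± 0.615 (SD, n = 3) in set 7, 9.02 to 10 on average in sets 22, 23 and 24, 3.6 to 4.12 in sets 96, 97 and 100, and 8.62 ± 0.425 in set ATGE_101.

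WRKY6 was low on soil and high on medium. Its intensities were 11.4, 15.1 and 3.27 in set 7, 30.4, 22.2 and 16.7 in set 22, 11, 8.75 and 7.88 in set 23, and 20.7, 8.38 and 18.7 in set 24. On medium they were 370, 421 and 373 in set 96, 102, 94.2 and 126 in set 97, 103, 112 and 91.5 in set 100, and 73.4, 85.1 and 89.3 in set ATGE_101. Every medium array lay above every soil array, and set 96 lay above all other sets. The arrays of sets 7, 23 and 24 overlapped, those of set 24 overlapped set 22, and those of sets 97 and 100 overlapped each other.

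WRKY22 followed the same division, with a finer order among the medium sets. It stood at 19.8, 31.1 and 19.3 in set 7, at 56.3, 54.1 and 50.1 in set 22, at 23.8, 17.2 and 19.2 in set 23, and at 23.5, 16.8 and 18.3 in set 24. On medium the arrays read 363, 344 and 359 in set 96, 175, 164 and 169 in set 97, 231, 237 and 239 in set 100, and 147, 143 and 142 in set ATGE_101. No 2 medium sets overlapped, and the order from high to low was 96, 100, 97 and ATGE_101. Both sets with sucrose thus lay below both sets without it. Set 22 lay between the medium sets and the other soil sets, and sets 7, 23 and 24 overlapped. In the moderated F test for any difference among the 8 sets WRKY22 ranked 52nd of 15471 by size of F, in a series where 89.9% of probe sets were called.

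WRKY47 had the narrowest range of means, from 35.6 in set 7 to 156 in set 96. Its soil arrays read 31.5, 36 and 39.1 in set 7, 67.4, 54.6 and 40.4 in set 22, 33.9, 44.1 and 46.8 in set 23, and 66.4, 30.3 and 53 in set 24. Its medium arrays read 147, 169 and 151 in set 96, 119, 129 and 140 in set 97, 83.8, 71.6 and 77.6 in set 100, and 48.6, 46.3 and 57.8 in set ATGE_101. Sets 96 and 97 were highest and set 100 came next. Set ATGE_101 overlapped sets 22, 23 and 24. The soil sets overlapped each other, apart from sets 7 and 22.

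WRKY53 had another order. Its arrays read 10.1, 11 and 5.38 in set 7, 40.1, 46.9 and 38.3 in set 23, 85.5, 38.4 and 75.1 in set 24, and 336, 332 and 125 in set 22. On medium they read 104, 95.9 and 98.7 in set 96, 173, 165 and 157 in set 97, 122, 145 and 133 in set 100, and 226, 239 and 218 in set ATGE_101. Set 7 lay below all other sets, and the highest means belonged to set 22 (265 ± 121) and set ATGE_101 (228 ± 10.4). The arrays of set 22 overlapped those of sets 97, 100 and ATGE_101, and sets 23 and 24 overlapped each other. Both sets with sucrose lay above both sets without it, the reverse of WRKY22. The spread in set 22 was 0.79 (SD, log2) against 0.05 in set 96, and it came from replicate C of set 22, the lowest of its set for all 4 genes.

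**Figure D1:**
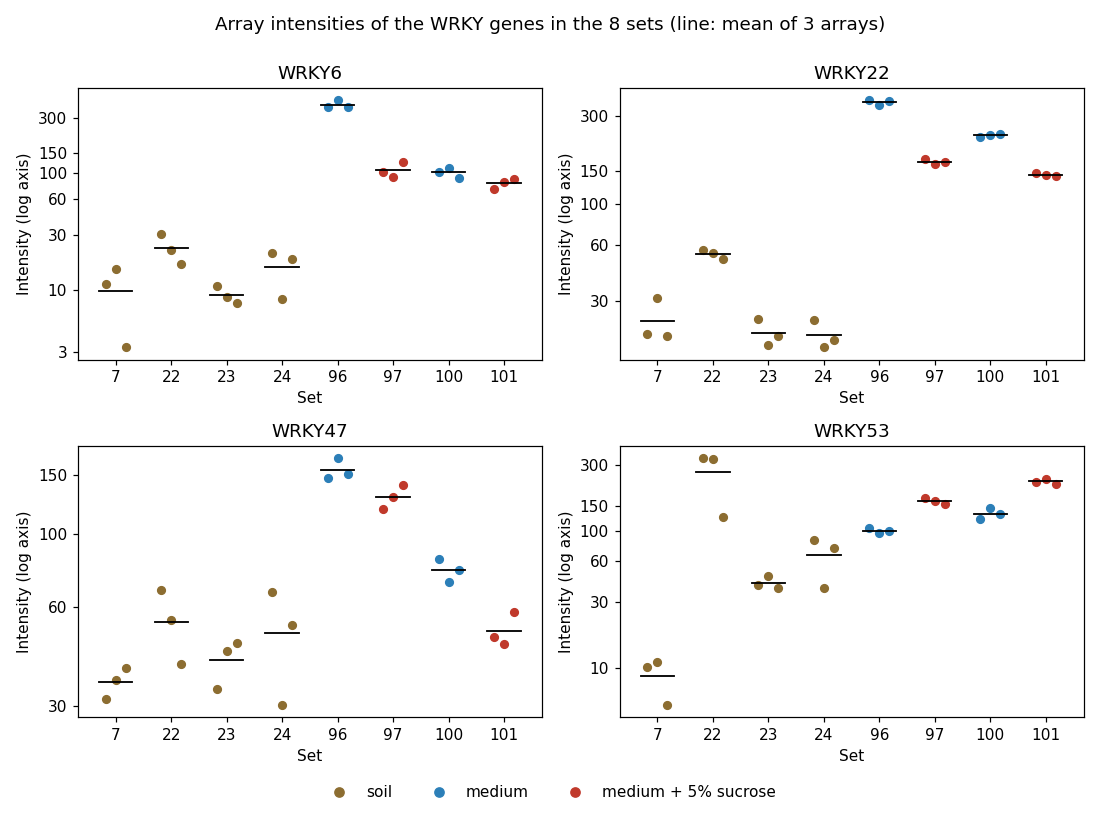
Intensity on a log axis for each of the 4 genes in the 8 sets. Points are single arrays, coloured by substrate, and black lines are means of 3 arrays. WRKY6 and WRKY22 are highest in set 96, and WRKY53 is lowest in set 7 and spread from 125 to 336 in set 22.

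Seedlings on medium without added sucrose were first set against seedlings on soil (set 96 against set 7), a comparison in which substrate and temperature differed together and cannot be told apart. All 4 genes were higher on medium, where 30.4% of all probe sets were called higher. WRKY6 rose by 4.64 ± 0.23 (SE) on the log2 scale (adjusted p = 2.2e-13), from a level in set 7 that was itself near the floor of the arrays. WRKY22 rose by 3.61 ± 0.12 (adjusted p = 3.8e-16), a 15.2-fold difference of the means. WRKY53 rose by 2.79 ± 0.27 and WRKY47 by 1.94 ± 0.18 (adjusted p = 7e-09 and 6.2e-09). Against the low values of set 7 these sizes depend on the pseudocount: over all alternatives WRKY6 ran from 3.5 to 5.24 and WRKY53 from 1.82 to 3.31. The median of the 4 differences was 3.2, and that of all tested probe sets was -0.12. With sucrose in the medium (set 97 against set 7, 31.8% called higher) all 4 were again higher. WRKY53 rose by 3.48, WRKY6 by 2.84, WRKY22 by 2.57 and WRKY47 by 1.68 (largest adjusted p = 8e-08). Over all alternatives WRKY53 ran there from 2.42 to 4.03, WRKY6 from 1.87 to 3.4, WRKY22 from 1.97 to 2.8 and WRKY47 from 1.32 to 1.81. These comparisons share the arrays of set 7. ICL rose by 4.18 and 2.23 and PYK10 by 1.6 and 1.81 in the same comparisons (largest adjusted p = 2.6e-05), and their part in the differences was not tested.

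Sucrose at 5% was compared with the same medium alone in 2 pairs of sets that share no array. In the first pair (set 97 against set 96) 2 of the 4 genes were lower, against 12.1% of all probe sets, and none was called higher (20.9% of all). WRKY6 fell by 1.79 ± 0.23 (adjusted p = 5.1e-06), the 57th lowest difference of all probe sets tested, and its mean went from 388 to 108. WRKY22 fell by 1.04 ± 0.12 (adjusted p = 1.2e-06), from a mean of 356 to 169. WRKY47 had a difference of -0.26 (95% interval -0.64 to 0.13, adjusted p = 0.3), although its arrays did not overlap between the sets. ICL fell by 1.95 (adjusted p = 1.2e-10), and its part in these differences was not tested.

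In the second pair (set ATGE_101 against set 100) WRKY22 and WRKY47 were lower, against 6.77% of all probe sets, and none was called higher (9.9% of all). WRKY22 fell by 0.68 ± 0.12 (adjusted p = 0.00038), from 236 to 144 on average, and did so in every comparison of single arrays. WRKY47 fell by 0.55 ± 0.18 (adjusted p = 0.045), from 77.7 to 50.9. That call was lost without any 1 of the 6 arrays: without replicate A, B or C of set 100 the adjusted p was 0.13, 0.07 or 0.099, and without A, B or C of set ATGE_101 it was 0.11, 0.14 or 0.051. WRKY6 had a difference of -0.29 (95% interval -0.77 to 0.2, adjusted p = 0.45). The actin ratio, 3.6 ± 0.789 in set 100, was higher in set ATGE_101, and its part in these differences was not tested.

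The sucrose effects of the pairs were then compared with each other, a test called for 12% of all probe sets. The labels give no sampling age for the second pair, so stage and other differences between the pairs cannot be told apart. For WRKY6 the effect was less negative in the second pair by 1.51 ± 0.33 (95% interval 0.83 to 2.19, adjusted p = 0.005). Without sucrose WRKY6 already stood 1.86 lower in set 100 than in set 96 (difference -1.86, adjusted p = 3.2e-06), while with sucrose sets ATGE_101 and 97 differed by -0.35 (95% interval -0.83 to 0.13, adjusted p = 0.25). The sucrose effects on ICL differed by 1.87 (adjusted p = 3.2e-07), and its part was not tested. The effects on WRKY22, WRKY47 and WRKY53 differed between the pairs by 0.36, -0.29 and 0.05, with 95% intervals of 0.01 to 0.71, -0.84 to 0.25 and -0.73 to 0.84, and none was called (adjusted p = 0.18, 0.52 and 0.95). For WRKY22 this depended on the arrays in the fit, since the difference was called with the 4 medium sets alone (adjusted p = 0.015).

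WRKY53 went the other way with sucrose in both pairs. Its differences were 0.69 ± 0.27 in the first and 0.75 ± 0.27 in the second (95% intervals 0.14 to 1.25 and 0.19 to 1.3), and neither was called (adjusted p = 0.052 and 0.061). All arrays with sucrose lay above all arrays without it in each pair. The standard error pools the spread over all 8 sets. In fits to only the sets compared both differences were called (adjusted p = 0.00028 and 0.00079). The mean of both sucrose effects, a contrast chosen after seeing the data and called for 35.1% of probe sets, was 0.72 ± 0.19 for WRKY53 (adjusted p = 0.0052). The same mean was -1.04 for WRKY6, -0.86 for WRKY22 and -0.41 for WRKY47 (adjusted p = 4.1e-05, 1e-07 and 0.02).

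The medium sets of the second pair were also compared with those of the first. In each comparison the sets share medium, temperature and sucrose level, and the labels give no sampling age for sets 100 and ATGE_101. Stage and other differences between the pairs cannot be told apart. Without sucrose (set 100 against set 96) WRKY6, WRKY22 and WRKY47 were lower, 3 of 4 genes against 12.7% of all probe sets. WRKY47 changed by -0.94 and WRKY22 by -0.58 (adjusted p = 0.00053 and 0.00089), and WRKY53 had a difference of 0.4 (95% interval -0.16 to 0.95, adjusted p = 0.28). With sucrose (set ATGE_101 against set 97, 17.7% called lower) WRKY47 alone of the 4 was called, at -1.24 ± 0.18 (adjusted p = 2.2e-05). WRKY53 had a difference of 0.45 there (95% interval -0.11 to 1.01, adjusted p = 0.2). PYK10 changed by -0.91 and -1.4 and ICL by -4.02 and -2.15 in these comparisons (largest adjusted p = 0.016). The actin ratio was 8.62 ± 0.425 in set ATGE_101 and 3.8 ± 0.375 in set 97. The part of these in the differences was not tested. In fits to only the sets compared, WRKY53 was called in both of these comparisons (adjusted p = 0.0097 and 0.0025), and WRKY6 and WRKY22 were called in the second (adjusted p = 0.048 and 0.04).

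**Figure D2:**
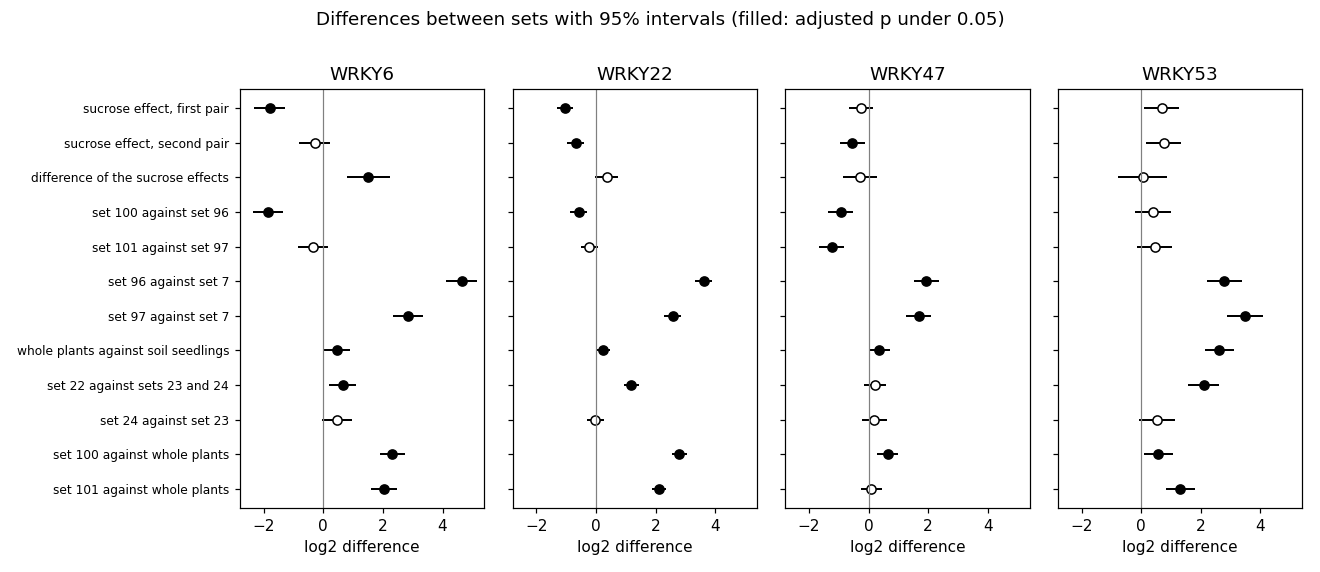
Log2 differences (first set minus second) of the 4 genes in the 12 comparisons, with 95% intervals from limma. Filled points have an adjusted p under 0.05. The highest point is WRKY6 in set 96 against set 7, at 4.64, and with sucrose WRKY53 lies to the right of 0 where WRKY6, WRKY22 and WRKY47 lie to the left.

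On soil, whole plants were compared with seedlings (mean of sets 22, 23 and 24 against set 7). The plant part sampled and the stage differed together and cannot be told apart. WRKY53 rose by 2.62 ± 0.22 (adjusted p = 1.4e-09), and its lowest whole-plant array, 38.3, was above its highest seedling array, 11. Because set 7 lies near the floor, the size depends on the pseudocount, and it ran from 1.74 to 3.11 over all alternatives. The other 3 genes were called higher by small amounts, so that 4 of 4 were called higher against 33.3% of all probe sets. WRKY6 differed by 0.46, WRKY47 by 0.35 and WRKY22 by 0.23 (adjusted p = 0.04, 0.045 and 0.047), and the arrays of these 3 overlapped between the groups. For WRKY22 set 22 alone had a higher mean log2 value (5.91) than set 7 (4.89), and sets 23 and 24 were lower (4.74 and 4.71). For WRKY6 set 23 (3.99) was level with set 7 (3.98). Their calls were lost in fits to only these sets (adjusted p = 0.11, 0.12 and 0.14), after quantile normalization (0.11, 0.12 and 0.18) and with a common 75th percentile (0.052, 0.077 and 0.098). The WRKY6 call was lost without array 7 C (difference 0.13, adjusted p = 0.56), 22 A, 23 A, 24 A or 24 C (0.068, 0.061, 0.068 and 0.064). The WRKY22 call was lost without array 7 A (0.15, adjusted p = 0.27), 7 C (0.13, adjusted p = 0.31), 22 A, 22 B, 23 A or 24 A (0.068, 0.061, 0.081 and 0.078), and without array 7 B the difference was 0.4 (adjusted p = 0.00072). The WRKY47 call was lost without array 7 A, 7 B, 7 C, 22 A, 22 B, 23 B, 23 C, 24 A or 24 C (adjusted p = 0.18, 0.091, 0.052, 0.077, 0.059, 0.065, 0.07, 0.074 and 0.069). PYK10 fell by 4.71 in the whole plants (adjusted p = 3.9e-13), and the actin ratio was 9.02 to 10 there against 5.96 in set 7. Their part in these differences was not tested.

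Among the whole plants set 22 stood apart from sets 23 and 24, though the labels are the same. Of the 4 genes 3 were higher in set 22, against 7.69% of all probe sets. WRKY53 rose by 2.1 ± 0.23 (adjusted p = 9.4e-07), the 66th highest difference of all, with means of 265 and 54.1. WRKY22 rose by 1.19 ± 0.1 (adjusted p = 3.6e-08), and its arrays did not overlap. Its values in sets 23 and 24 were low, and the difference ran from 0.78 to 1.37 over all alternatives. WRKY6 was higher by 0.65 ± 0.2 (adjusted p = 0.027), a call that was lost in the fit to only these sets (0.079) and without array 22 A, 22 B, 23 C or 24 B (0.19, 0.076, 0.052 and 0.058). WRKY47 had a difference of 0.23 (95% interval -0.11 to 0.56, adjusted p = 0.37). Between sets 24 and 23, where 0.853% of all probe sets were called, limma called 0 of the 4 genes, and 0 had an unadjusted p under 0.05. Their differences there were 0.46 for WRKY6, -0.03 for WRKY22, 0.18 for WRKY47 and 0.53 for WRKY53 (adjusted p = 0.39, 0.95, 0.72 and 0.39).

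Medium seedlings of the second pair were compared with whole soil plants. Substrate, temperature, the plant part sampled and the stage differed together here and cannot be told apart. Without sucrose (set 100) all 4 genes were called higher than in the whole plants, against 27.9% of all probe sets. WRKY22 rose by 2.8 and WRKY6 by 2.32 (adjusted p = 1.3e-15 and 9.4e-10), WRKY47 by 0.64 (adjusted p = 0.00088) and WRKY53 by 0.57 (adjusted p = 0.03). Over all alternatives WRKY22 ran from 2.23 to 3.02 and WRKY6 from 1.6 to 2.67. The WRKY53 value averages unlike sets, since set 100 (122 to 145) lay above sets 23 and 24 and overlapped set 22. Its call was lost in the fit to only these sets (0.092) and without array 100 B or 100 C (0.11 and 0.075). With sucrose (set ATGE_101) 3 of 4 were higher, against 28.8% of all probe sets: WRKY22 by 2.12, WRKY6 by 2.04 and WRKY53 by 1.31 (adjusted p = 1.4e-13, 8.4e-09 and 2.6e-05). WRKY47 differed by 0.09 (95% interval -0.22 to 0.41, adjusted p = 0.62). These comparisons share the whole-plant arrays. PYK10 rose by 5.41 and 5.13 in them (adjusted p = 2e-14 and 6.7e-14), and the actin ratio was 3.6 in set 100 and 8.62 in set ATGE_101 against 9.02 to 10 in the whole plants. Their part was not tested.

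The correlations of WRKY53 with the other 3 genes were positive on soil and negative on medium. They are given as descriptions, over arrays that share their scaling and fall into sets. Over the 12 soil arrays WRKY53 correlated with WRKY22 at r = 0.71, with WRKY6 at 0.79 and with WRKY47 at 0.71. Over the 12 medium arrays the correlations of WRKY53 with WRKY22, WRKY6 and WRKY47 were -0.95, -0.83 and -0.78. The pairs without WRKY53 were positive on both: WRKY6 and WRKY22 correlated at 0.71 on soil and 0.89 on medium, WRKY6 and WRKY47 at 0.66 and 0.75, and WRKY22 and WRKY47 at 0.42 and 0.65.

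The genes most like each of the 4 were sought among 1212 other tested probe sets with a gene symbol, by Pearson's r over all 24 arrays. For WRKY6 they were UGT73B5, a UDP-glycosyltransferase (0.97), WRKY22 (0.96) and BIK1, a receptor-like cytoplasmic kinase of the immune response to microbial patterns (0.96). For WRKY22 they were GAT1_2.1, a glutamine amidotransferase-like gene, WRKY6, and PUB23, a U-box ubiquitin ligase that dampens that immune response, each at 0.96. Because soil and medium arrays form separate clusters for these genes, the values within each are also given. UGT73B5 and BIK1 correlated with WRKY6 at 0.74 and 0.59 on soil and at 0.91 and 0.95 on medium. For WRKY22 the values were 0.35 on soil and 0.94 on medium with GAT1_2.1, and 0.83 and 0.74 with PUB23. GAT1_2.1 stayed at or below 2.52 in every soil array.

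WRKY47 was most like YLS5, first described as a gene of yellowing leaves (0.94), MSRB9, a methionine sulfoxide reductase (0.9), and UGT71C2, another glycosyltransferase (0.88). On soil these 3 values were 0.62, 0.71 and 0.47, and on medium 0.95, 0.94 and 0.85. WRKY53 was most like GRX480, a glutaredoxin that binds TGA transcription factors (0.94), BZIP60, a transcription factor of the endoplasmic reticulum stress response (0.93), and TET8, a tetraspanin (0.92). On soil all 3 stayed close to WRKY53, at 0.96, 0.99 and 0.98. On medium GRX480 did so at 0.89, whereas BZIP60 and TET8 stood at -0.32 and 0.32. GRX480 averaged 10.2 in set 7, 152 in set 22, 41.9 in set 96 and 167 in set ATGE_101. With likeness taken over the 8 set means in place of arrays, the 3 nearest genes were the same for WRKY6 and WRKY53, and 1 of 3 was shared for WRKY22 (PUB23) and WRKY47 (YLS5).

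**Figure D3:**
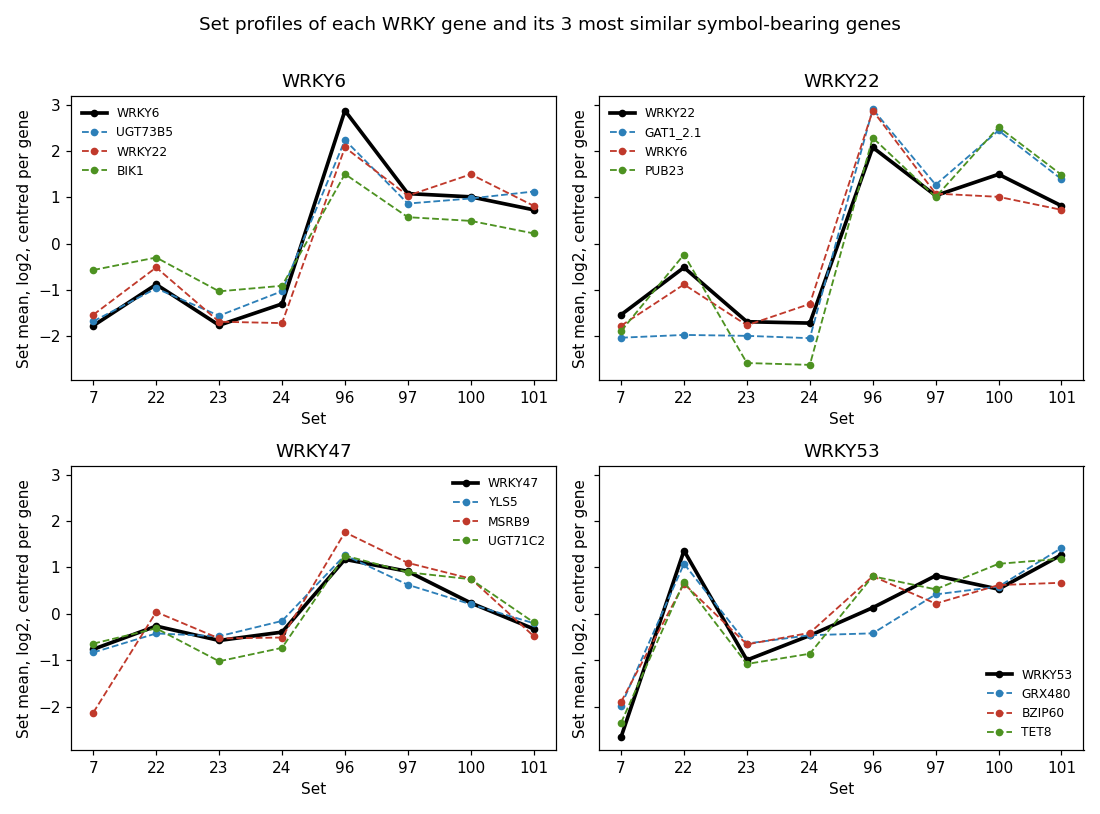
Set means of log2(intensity + 6.75), centred per gene, for each WRKY gene (black) and the 3 genes with the highest r over 24 arrays (dashed). WRKY6 and WRKY22 are highest in set 96, as are UGT73B5, BIK1 and GAT1_2.1, while PUB23 is highest in set 100 (8.7, against 8.47 in set 96, before centring). WRKY53, GRX480, BZIP60 and TET8 are lowest in set 7, and among the soil sets they are highest in set 22.

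Other WRKY genes were named alone by a probe set in 3 of 68 cases, and the rest were not analysed here. WRKY1 (symbol ZAP1 in the annotation) and WRKY20, both of group I, were tested. In set 96 against set 7, where 40.4% of all probe sets were called lower, WRKY1 fell by 0.82 and WRKY20 by 0.4 (adjusted p = 2e-07 and 0.00095). With sucrose in the second pair they rose by 0.6 and 0.35 (adjusted p = 0.00018 and 0.015), and in the first pair WRKY20 rose by 0.3 (adjusted p = 0.02) and WRKY1 had a difference of 0.25 (adjusted p = 0.052). WRKY42, of group IIb like WRKY6 and WRKY47, did not pass the filter, and its highest array read 6.24.

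Of 12 genes of immune signalling upstream of the WRKY factors, such as the flagellin receptor FLS2 and the kinases MPK3 and MPK6, BIK1 alone could be named. BIK1 rose by 2.07 in set 96 against set 7 and fell by 0.93 with sucrose in the first pair (adjusted p = 1e-10 and 7.5e-05). In the second pair its difference was -0.26 (adjusted p = 0.26), and the sucrose effects differed by 0.67 (adjusted p = 0.046). None of 12 known targets and interactors, among them PHO1 and FRK1, could be named. The arrays measure RNA and not the activity of the WRKY proteins.

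Genes known to respond rapidly to touch and wounding could be named in 9 of 27 cases. The list was chosen with earlier results of these data known, so the counts below are descriptions and no independent test. In set 96 against set 7, 8 of the 9 were higher, against 30.4% of all probe sets (median 3.55, against -0.12 over all). In set 22 against sets 23 and 24, 8 of the 9 were higher, against 7.69% (median 1.69, against -0.06). With sucrose 5 were lower and 1 was higher in the first pair, against 12.1% and 20.9% of all probe sets (median -0.78, against 0.08). In the second pair 4 were lower and none higher, against 6.77% and 9.9% (median -0.39, against 0.03). STZ, a zinc finger repressor, averaged 18.1 in set 7, 493 in set 22, 448 in set 96 and 1420 in set 100. XTH18, which remodels wall xyloglucan, fell with sucrose by 3.07 and 1.39 (adjusted p = 3.1e-06 and 0.014). The calmodulin-like gene CML42 fell by 1.5 and 1.3 (adjusted p = 2.1e-09 and 6.6e-08). CML38, another calmodulin-like gene, rose by 3.79 in set 22 against sets 23 and 24 (adjusted p = 1.4e-09), with sucrose differences of -0.23 and -0.02 (adjusted p = 0.61 and 0.97).

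On some arrays WRKY53 and part of the touch and wound genes departed from their set means in the same direction. Array 22 C stood 0.91 below its set mean for WRKY53 (deviation -0.91, log2), and STZ, CML38 and CML37 deviated by -0.65, -1.27 and -1.5 on that array. On array 24 B WRKY53 deviated by -0.63 and STZ by -0.42, while PUB23, PUB22 and CML23 deviated by 0.66, 0.45 and 0.29. The actin ratio was 11.3 on array 22 C, against 7.37 and 9.84 on 22 A and 22 B. It was 9.91 on array 24 B, against 7.74 and 9.4 on 24 A and 24 C. The GAPDH 3′ to 5′ ratio was the highest of its set on 22 C (1.7) and the lowest of its set on 24 B (1.25). The part of array quality in these deviations was not tested. Over the 24 deviations WRKY53 correlated with STZ at r = 0.87, with CML37 at 0.87 and with CML38 at 0.86, and 0.46 was the 90th percentile over all probe sets tested. For the other 6 listed genes r was 0.77 (PUB24), 0.69 (XTH18), 0.34 (PUB22), 0.32 (PUB23), 0.06 (CML42) and -0.07 (CML23). High values were not particular to the list: r was 0.87 for BZIP60, 0.77 for GRX480 and 0.67 for TET8. With WRKY6, WRKY47 and WRKY22 it was 0.71, 0.64 and 0.44. CML37 and these deviations were picked after the values were seen. The relation with STZ rests on sets 22 and 24, since over the other 18 arrays r was -0.05 for STZ, 0.33 for CML37 and 0.63 for CML38. Over the same 18 arrays it was -0.18 for BZIP60, -0.16 for GRX480, -0.07 for TET8, 0.51 for PUB24 and 0.03 for XTH18. For WRKY6, WRKY47 and WRKY22 it was 0.67, -0.46 and 0.38 there, so the value for WRKY47 changed sign.

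**Figure D4:**
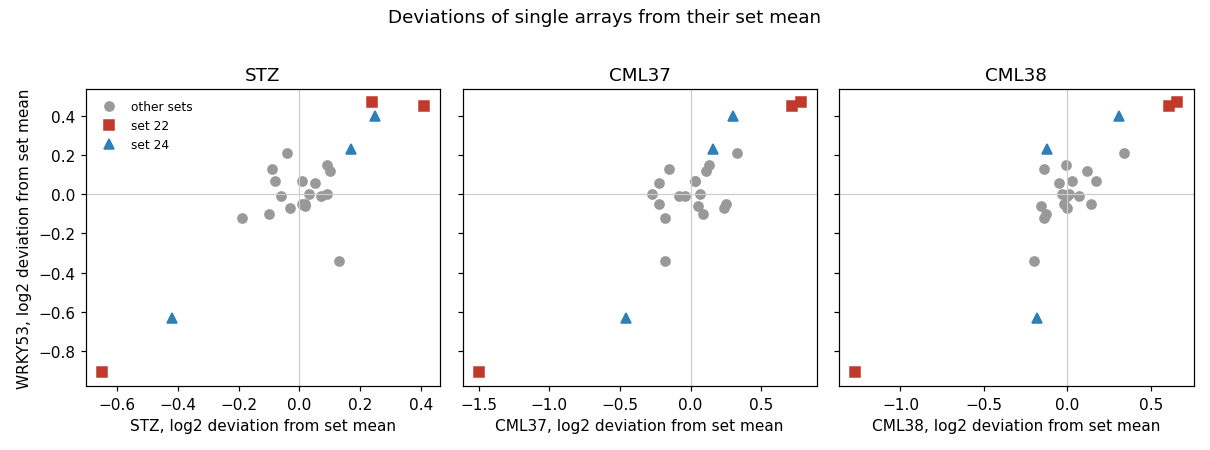
Deviation of each array from its set mean (log2) for WRKY53 against STZ, CML37 and CML38. Squares are set 22, triangles set 24 and grey circles the other 6 sets, and array 22 C lies lowest in each panel, at -0.91 for WRKY53.

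Senescence genes could be named in 4 of 10 cases, from a list also chosen with earlier results of these data known. In set 96 against set 7 SAG101, GAMMA-VPE and ATG8E rose by 2.05, 1.26 and 3.46 (adjusted p = 5e-08, 5.3e-09 and 2.9e-13), and SAG29 fell by 1.26 (adjusted p = 0.012). In whole plants against soil seedlings the same 3 rose, by 1.49, 1.85 and 1.81, and SAG29 fell by 2.59 (largest adjusted p = 1.4e-06). Of all 15471 probe sets 33.3% were called higher in that comparison, and 10082 were called in either direction. In set 96 against set 7, 30.4% were called higher and 40.4% lower. In set 22 against sets 23 and 24, with 7.69% of all probe sets called higher, SAG101 and ATG8E rose by 0.73 and 0.72 (adjusted p = 0.01 and 0.0017). GAMMA-VPE, a vacuolar processing enzyme, fell there by 0.51 (adjusted p = 0.0011), where 2720 probe sets were called in either direction. With sucrose in the first pair GAMMA-VPE rose by 0.47 and ATG8E, of the autophagy machinery, fell by 0.55 (adjusted p = 0.0044 and 0.021), and in the second SAG29 was called, at 1.3 (adjusted p = 0.04).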

How the data were processed

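Intensity values, 1 per probe set and array on a linear scale, were used as deposited. The submitters' processing notes name MAS5, and other steps are not given in the sources used here. The trimmed mean (2% at each end) of every array was 100 when checked. Groups follow the set numbers of the sample titles. The 64 control probe sets were left out of all tests. A probe set was tested where at least 3 arrays exceeded 22.9 (the 40th percentile of all values), which kept 15471. Intensities were put on the log2 scale after adding 6.75 (the 20th percentile), which understates changes of dim genes. limma 3.58.1 in R 4.3.3 was run over the 24 arrays with 1 mean for each of 8 sets (lmFit, eBayes; residual degrees of freedom 16, prior 4.77; tests two-sided), with Benjamini-Hochberg adjustment over all tested probe sets. Symbols came from the platform annotation, through gene identifiers of RefSeq's TAIR10.1 table: 13513 probe sets named 1 gene, 503 several and 8730 none. Members and lists were chosen with earlier results of these data known. Other genes were named by rule: tested WRKY genes, the 3 most correlated genes per member, and up to 4 genes per list, those with a known direct link to a member first and then by mean intensity. Alternatives were other pseudocounts (1.69 and 27), no filter or a stricter one (61.6), only the sets compared, scaling to a common 75th percentile or by quantiles, a robust fit with a trend, a block for the replicate letter, each array left out, and arrays 24 A, 100 A and ATGE_101 A left out together (lowest spike-ins on 100 A and ATGE_101 A, a high GAPDH 3′ to 5′ ratio on 24 A; chosen after seeing the data). The fit was tested on simulated data. No sequences were used here.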

Additional observations from a re-analysis of the deposited data

Results flagged for a closer look

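The sucrose effect on WRKY6 differed between the pairs of medium sets, whose stage and other differences cannot be told apart. The interaction was 1.51 on the log2 scale (adjusted p = 0.005), from a fall by 1.79 in the first pair to a difference of -0.29 in the second. All 3 arrays with sucrose lay below all 3 without it in each pair, and the starting means were 388 in set 96 and 102 in set 100. The actin 3′ to 5′ ratio was 4.12 ± 1.92 and 3.8 ± 0.375 (SD, n = 3) in sets 96 and 97, and 3.6 ± 0.789 and 8.62 ± 0.425 in sets 100 and ATGE_101, and ICL averaged 131, 29.2, 1.67 and 1.21 in sets 96, 97, 100 and ATGE_101. The part of either in the difference was not tested.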

How the results depend on the processing

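Of 48 differences (4 genes, 12 comparisons) 31 kept their direction and their side of the threshold in every alternative, among them all 8 of sets 96 and 97 against set 7 and the WRKY6 and WRKY22 effects in the first sucrose pair. The causes of the changes below were not tested. The WRKY47 effect in the second pair was not called with a smaller pseudocount (-0.6), no filter (-0.55), the replicate block (-0.55) or without arrays 24 A, 100 A and ATGE_101 A (-0.47), and ran from -0.64 to -0.5 with single arrays left out. The WRKY53 sucrose effects were called with a larger pseudocount (0.6 and 0.67), and with a stricter filter or only the sets compared (0.69 and 0.75 in each), and the first also with the replicate block (0.69). The difference of the WRKY22 effects was called with the larger pseudocount (0.35) or only the sets compared (0.36). That of WRKY53, near 0, was 0 without the 3 arrays and ran from -0.01 to 0.11 with single arrays left out. In whole plants against soil seedlings calls were lost for WRKY6, WRKY22 and WRKY47 with no filter or only the sets compared (0.46, 0.23 and 0.35), quantile normalization (0.36, 0.14 and 0.27), a common 75th percentile (0.43, 0.19 and 0.31) and without the 3 arrays (0.4, 0.19 and 0.28). They were also lost for WRKY6 with the larger pseudocount (0.22), for WRKY22 with the smaller (0.25), and for WRKY22 and WRKY47 with the replicate block (0.23 and 0.35). Leaving out single arrays gave 0.13 to 0.69, 0.13 to 0.4 and 0.28 to 0.45. With only the sets compared, WRKY6 in set 22 (0.65) and WRKY53 in set 100 against whole plants (0.57) lost their calls, and single arrays left out gave 0.48 to 0.81 and 0.41 to 0.64. Uncalled differences near 0 changed sign: WRKY47 in set ATGE_101 against whole plants (-0.01 after quantile normalization, 0 to 0.16 with arrays left out), and in set 24 against set 23 WRKY22 (-0.13 to 0.07) and WRKY47 (-0.03 without the 3 arrays, -0.03 to 0.46 with single arrays left out).

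Counts over all probe sets moved by more than 1.5 times with only the sets compared for 3 comparisons: from 1855 to 3076 for the difference of the sucrose effects, from 2720 to 1319 for set 22, and from 132 to 0 in limma for set 24 against set 23 (1273 at an unadjusted p under 0.05), where no filter left 76. The deviations of same-lettered arrays of different sets had a mean r of 0 (range -0.18 to 0.16, 2 of 84 over 0.1), so the letters were not taken as pairs. Levels of WRKY6 and WRKY53 in set 7 lay below the filter's 22.9, where differences depend on the pseudocount. So did those of WRKY6 in sets 23 and 24, and the WRKY22 means there (20.1 and 19.5). In set 22 against sets 23 and 24, WRKY6 differed by 0.85 with the smaller pseudocount and by 0.34 with the larger. For WRKY22 these values were 1.37 and 0.78.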
